A study of Caenorhabditis elegans with 24 samples.

Results

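The 9 genes described here encode enzymes that remove reactive oxygen species in Caenorhabditis elegans: 5 superoxide dismutases (sod-1 to sod-5), 3 catalases (ctl-1, ctl-2 and ctl-3) and the peroxiredoxin prdx-2. They were chosen by name from the 45642 genes of the poly(A) RNA table, and their values were read in 3 assays, poly(A) RNA, RNA recovered with the anti-dsRNA antibody J2 (J2-IP) and the input RNA of that immunoprecipitation. Of the 24 samples of the series, 14 carried values for these genes. Poly(A) RNA came from whole L4 animals grown at 20°C, with 3 wild-type libraries (strain N2-CGC B) and 3 libraries of the tdp-1(ok803) mutant, which lacks the worm ortholog of the RNA-binding protein TDP-43. The J2-IP used lysates of whole young adults grown at 15°C, not crosslinked, with 3 wild-type and 3 tdp-1(ok803) libraries and 1 input library of each genotype. Stage and temperature therefore differed between poly(A) RNA and J2-IP, and the 2 assays were not tested against each other. The data give 1 value per gene and no positions of reads within tdp-1. Which part of the gene the mutant reads came from is therefore unknown, and the value of tdp-1 is no check of the genotype. The value of tdp-1 was 2156, 3501 and 4322 normalized counts in wild-type poly(A) replicates 1 to 3 and 915, 3542 and 3478 in the mutant. Its input values were 38 in wild type and 12 in the mutant. The deposited J2-IP values were higher in the mutant, at 27, 27 and 25 in wild type against 53, 61 and 50 (log2 fold change 1.02). That direction turned, to -0.59, where the mutant J2-IP values were multiplied by the ratio of mutant to wild-type input.

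Superoxide dismutases convert superoxide into hydrogen peroxide and oxygen, and catalases and peroxiredoxins then reduce the peroxide. SOD-1 is the main cytosolic copper/zinc enzyme and the worm counterpart of human SOD1, a gene mutated in familial amyotrophic lateral sclerosis. SOD-2 and SOD-3 are mitochondrial manganese enzymes, SOD-4 is an extracellular or membrane-bound copper/zinc enzyme, and SOD-5 is a minor cytosolic one. CTL-1 is a cytosolic catalase and CTL-2 a peroxisomal one, and sod-3 and ctl-1 are well-known targets of the FOXO factor DAF-16 downstream of the insulin receptor DAF-2.

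All 9 genes were listed in the poly(A) table, where 7 had values above 0 and were tested. For J2-IP and input, 6 members were listed (sod-1, sod-2, the 3 catalases and prdx-2), and sod-3, sod-4 and sod-5 were not analysed in these assays. The poly(A) libraries held from 65546397 to 107297985 recovered reads, while the depth of the J2-IP and input libraries is unknown because their values were deposited after scaling and rounding. Markers of muscle, intestine, neurons, hypodermis and germ line (unc-54, ges-1, rab-3, dpy-7 and gld-1) were all above 0 in poly(A) RNA. The summed poly(A) value of the 6 vit yolk protein genes, made in the adult intestine, lay between 186941 and 523411 in the wild-type libraries and between 88283 and 149463 in those of the mutant, without overlap. Taken singly, 1 of these 6 genes (vit-6) had all mutant libraries below all wild-type libraries, as did 3.49% of all genes tested. The mutant was lower in every replicate number for vit-2, vit-5 and vit-6. In replicate 1 it was higher for vit-1, vit-3 and vit-4 (1.11-fold, 1.71-fold and 1.81-fold). The sum of 8 molting genes lay between 87859 and 189241 in wild type, overlapping the mutant range of 138381 to 229478. None of the 14 stage genes was at 0 in both genotypes. The part of these differences in the values below was not tested, and in RNA of whole animals fewer cells of a type and less RNA per cell cannot be told apart.

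The first comparison asked whether loss of tdp-1 changed the abundance of these mRNAs in L4 animals. No member passed the threshold (limma on log2(value + 1), adjusted p under 0.05), and 0.0% of the 15807 genes tested did, although 413 genes, or 2.61%, had an unadjusted p under 0.05. The edgeR test called 0 genes, and DESeq2 called 7 higher and 10 lower without a member among them. DESeq2 gave no adjusted p for ctl-1, so that gene could not be called there. With replicates 2 and 3 alone 4.29% of genes were called, again without a member. The members nonetheless differed in how they varied among the libraries, and the 3 catalases gave the widest spread.

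Cytosolic sod-1 had 13958, 13286 and 16517 normalized counts in wild-type replicates 1, 2 and 3 and 13316, 11336 and 11425 in the mutant. The means were 14587 ± 1705 and 12025.5 ± 1118 (SD, n = 3), and mutant replicate 1 lay above wild-type replicate 2, so the groups overlapped. The log2 fold change was -0.28 (SE 0.21), with an adjusted p of 1.00. The mitochondrial enzyme SOD-3, which is induced by stress and by reduced insulin signaling, had low mRNA levels of 229, 161 and 173 normalized counts in wild type and 134, 148 and 107 in the mutant. All 3 mutant libraries lay below all 3 wild-type libraries, as they did for 3.49% of all genes tested, with a log2 fold change of -0.52 (SE 0.35, adjusted p 1.00). These values rest on no more than 291 reads per library, and sod-3 overlaps lido-1 and C08A9.3 in part in the RefSeq annotation of assembly WBcel235.

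Extracellular sod-4 had 1504, 787 and 724 normalized counts in wild type and 1043, 999.8 and 1076 in the mutant. The mutant libraries were close together, whereas wild-type replicate 1 was above them and wild-type replicates 2 and 3 below. The log2 fold change of 0.13 (SE 0.33, adjusted p 1.00) stood for ratios of mutant to wild type of 0.694, 1.27 and 1.49 for replicates 1, 2 and 3. With replicates 2 and 3 alone, the fold change was 0.46 on the log2 scale (SE 0.20, adjusted p 0.216, range over all alternatives 0.216 to 1.00). The gene overlaps ctr-9 in part, and the methods state strand-specific libraries only for J2-IP and input.

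The genes sod-2 and sod-5 were listed at 0 in all 6 poly(A) libraries. For sod-2, the gene for the main mitochondrial enzyme, the same gene had input values of 29 in wild type and 27 in the mutant. In the RefSeq annotation it lies inside dpt-1, which was listed in poly(A) RNA with 8277 to 12379 normalized counts. The part of that overlap in the value of 0 was not tested, and 24805 of the 45642 genes in the table were at 0 in every library.

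The catalase genes ctl-2, ctl-1 and ctl-3 follow each other in this order with no gene between them. They are closely related copies, and how the counting treated reads that match more than 1 of them is not given in the sources used here, so the split among them is uncertain. In the RefSeq annotation ctl-2 also overlaps Y54G11A.7 in part, listed with 2007 to 2378 normalized counts. Cytosolic ctl-1 had 2292, 134 and 147 normalized counts in wild type and 1505, 133 and 140.4 in the mutant. Replicate 1 was 16.3-fold above the mean of replicates 2 and 3 in wild type and 11-fold above it in the mutant, while within each replicate number the mutant was at 0.656, 0.991 and 0.952 of wild type. Peroxisomal ctl-2 behaved alike at a smaller scale, with 33991, 7124 and 7589 normalized counts in wild type and 19569.8, 6994 and 7206 in the mutant. Here replicate 1 was 4.62-fold and 2.76-fold above the mean of the other two, and the ratios of mutant to wild type were 0.576, 0.982 and 0.949.

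The difference between replicate numbers was thus far larger than the difference between genotypes for both genes. The log2 fold changes were -0.23 for ctl-1 (SE 1.31) and -0.30 for ctl-2 (SE 0.67), both with an adjusted p of 1.00, and with a term for the replicate number the SE fell to 0.26 and 0.22 (adjusted p 0.766 and 0.647). The ranges of adjusted p over all alternatives were 0.722 to 1.00 and 0.647 to 1.00, the range of ctl-1 without DESeq2, which gave it no adjusted p. In all, 5.8% of genes tested were at least 2-fold higher in replicate 1 in both genotypes, and 10 genes (0.0633%), ctl-1 included, reached the folds of ctl-1 in both. Of the fixed lists of related genes, the metallothionein gene mtl-1 (24.6-fold and 11.8-fold), the insulin receptor gene daf-2 (5.30-fold and 3.06-fold) and the glutathione peroxidase gene gpx-3 (2.42-fold and 6.47-fold) also passed the 2-fold mark. Replicate 1 of both genotypes also had the lowest summed yolk value (186941 in wild type and 88283 in the mutant) and the highest summed molting value (189241 and 229478). Folds of single genes over the mean of replicates 2 and 3 varied (wild type first). The molting genes mlt-8 (0.66 and 0.52), mlt-10 (0.62 and 0.93) and nas-36 (0.75 and 0.67) were lower in replicate 1, and the others higher. All yolk genes were lower in wild-type replicate 1. In mutant replicate 1, vit-1 (1.25) and vit-3 (1.23) were higher, vit-2, vit-5 and vit-6 were lower, and vit-4 lay between replicates 2 and 3. The part of these differences in the catalase values was not tested.

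The third catalase gene, ctl-3, had the lowest ratio of mutant to wild type among the members. It had 357, 134 and 264 normalized counts in wild type and 136, 23.4 and 106 in the mutant. The mutant was lower in 3 of 3 replicate numbers, with ratios of 0.38, 0.17 and 0.40, although mutant replicate 1 lay just above wild-type replicate 2. The means were 252 ± 112 and 88.2 ± 58.1 (SD, n = 3), and the log2 fold change was -1.73 (SE 0.72, unadjusted p 0.0444 in limma, adjusted p 1.00). With a term for the replicate number the SE was 0.36 and the adjusted p 0.216, and over all alternatives the adjusted p ran from 0.143, with replicates 2 and 3 alone, to 1.00. The value in mutant replicate 2 rests on 23 reads, and without that library the log2 fold change was -0.96.

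Peroxiredoxin prdx-2 had 63799.6, 47180.1 and 63509 normalized counts in wild type and 93942, 46464 and 47192 in the mutant. Mutant replicate 1 was the highest of the 6 libraries and mutant replicate 2 the lowest, so the ratios of mutant to wild type ran from 1.47 in replicate 1 through 0.985 in replicate 2 to 0.743 in replicate 3. The log2 fold change was 0.04 (SE 0.34, adjusted p 1.00), and -0.23 with replicates 2 and 3 alone (SE 0.22, adjusted p 0.572, range over all alternatives 0.572 to 1.00). The sign of the prdx-2 difference also turned without mutant replicate 1 (-0.30) and without wild-type replicate 2 (-0.11), and stayed positive without wild-type replicate 1 (0.11).

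Across the 7 members tested in poly(A) RNA, 5 had a negative log2 fold change, and the median was -0.28 against -0.02 over all genes tested. The same 5 genes (sod-1, sod-3 and the 3 catalases) were lower in the mutant in each of the 3 replicate numbers, as were 18.2% of all genes tested. Without wild-type replicate 1, 4 of the 7 members had a positive fold change, and without wild-type replicate 2 all 7 were negative.

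**Figure D1:**
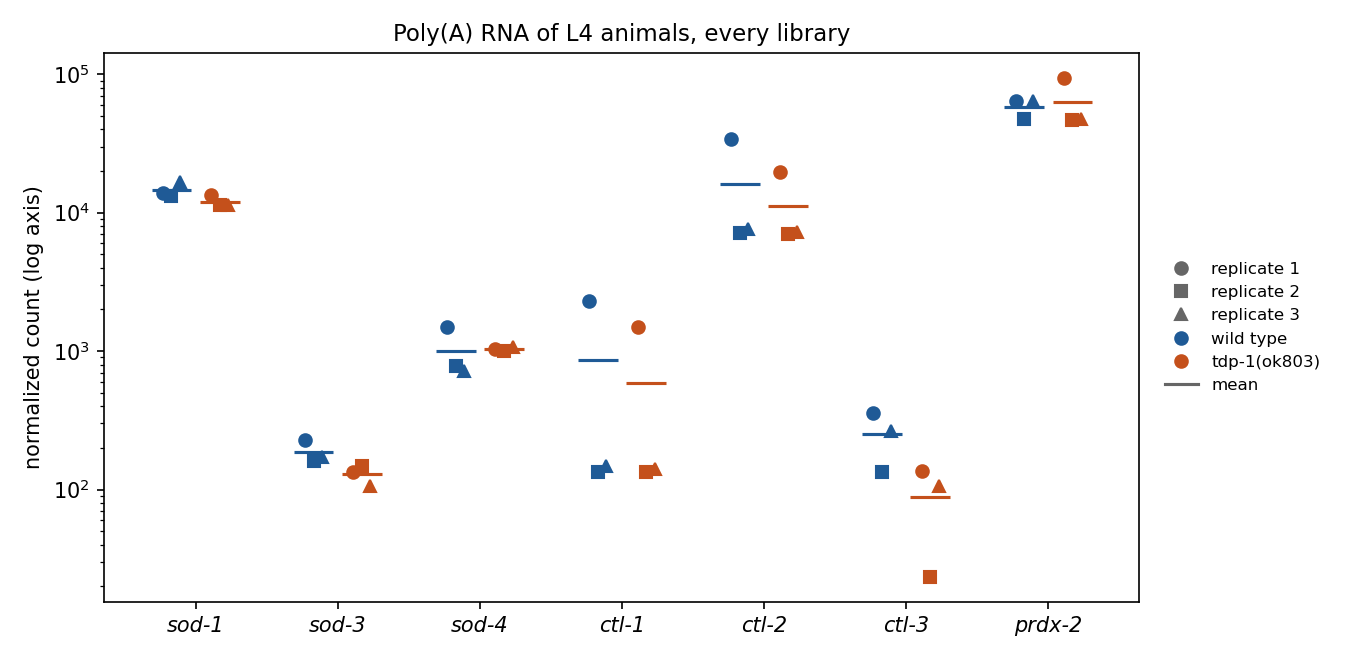
Normalized counts (log axis) of the 7 members above 0 in poly(A) RNA of L4 animals, with 1 point per library, colour for genotype, shape for replicate number and a line at the mean of 3 libraries. For ctl-1 and ctl-2 replicate 1 of both genotypes stood above replicates 2 and 3, at 2292 and 1505 against 133 to 147 normalized counts for ctl-1, and mutant replicate 2 of ctl-3 stood lowest at 23.4.

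**Figure D2:**
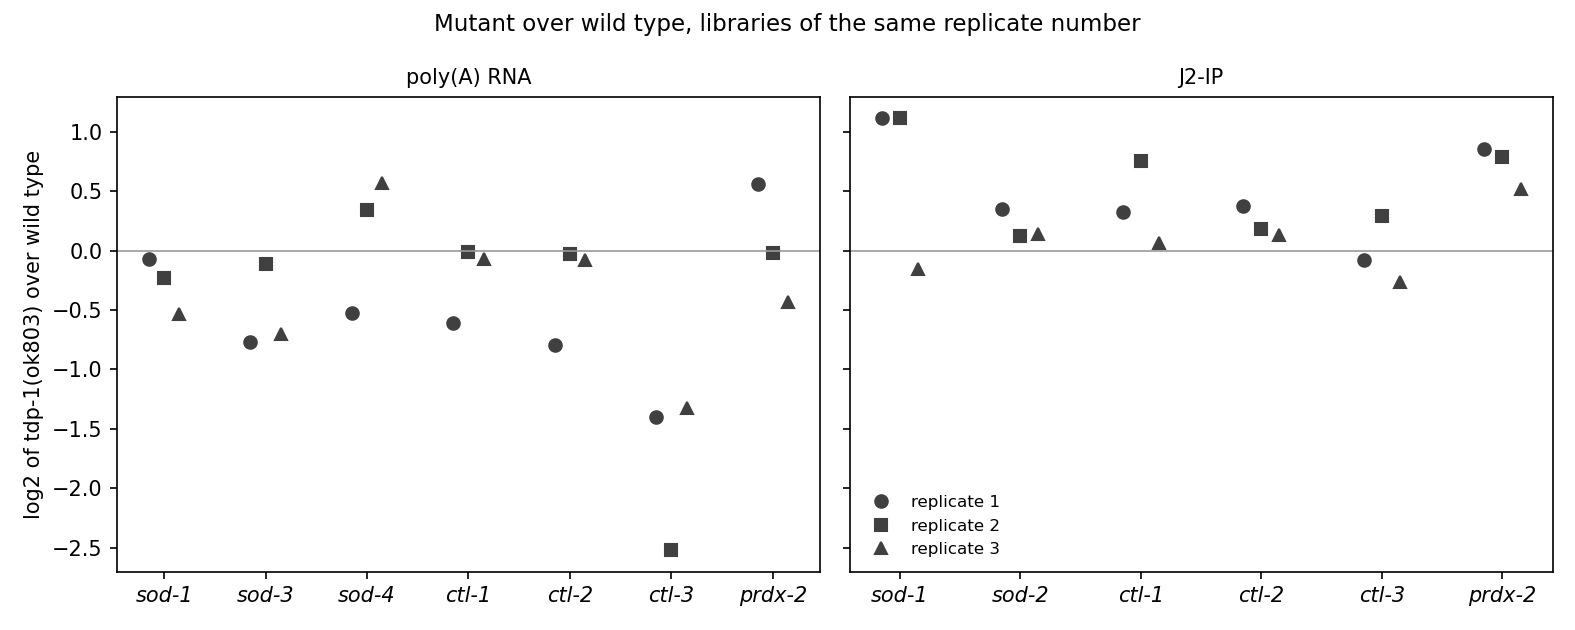
Log2 of the ratio of tdp-1(ok803) to wild type between libraries with the same replicate number, for poly(A) RNA (left, 7 members) and J2-IP (right, 6 members). In poly(A) RNA all 3 points lie below 0 for sod-1, sod-3 and the 3 catalases, as for 18.2% of all genes tested. In J2-IP all 3 points lie above 0 for sod-2, ctl-1, ctl-2 and prdx-2. The share of all genes with this J2-IP pattern was not counted. By a stricter rule, 44.0% of genes tested had all mutant J2-IP libraries above all wild-type libraries.

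The second comparison asked whether these transcripts were recovered in larger amounts by the J2 antibody, which binds double-stranded RNA, from tdp-1(ok803) lysates of young adults. With the deposited values 3 of the 6 members tested were called higher and 0 lower (limma, p under 0.05 and adjusted p under 0.1), namely prdx-2, sod-1 and ctl-2. This has to be read against the background, since 44.6% of the 8680 genes tested were called higher and 8.17% lower, and the median log2 fold change over all genes was 0.24. The median of these 6 members was 0.29.

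Wild-type J2-IP replicates 1, 2 and 3 held prdx-2 at 73, 70 and 78, and the mutant replicates at 132, 121 and 112. All mutant libraries lay above all wild-type libraries, as they did for 44.0% of genes tested, and each was at least 1.44-fold above the wild-type library of its number. The means were 73.7 ± 4.04 and 121.7 ± 10.02 (SD, n = 3), and the log2 fold change was 0.71 (SE 0.08, adjusted p 0.00157). It was called under each of the 11 alternatives that did not select on enrichment over input, with adjusted p from 0.000552 to 0.0283. With equal library totals, which move the median of all genes from 0.24 to -0.10, the log2 fold change of prdx-2 was 0.36, with 13.1% of genes then called higher and 27.8% lower. Among the genes over 1.5-fold above wild-type input in either genotype, where 43.1% were called higher, prdx-2 was the 1 member tested, but it passed this filter only through its mutant libraries, the group where it is high, so its call there adds nothing.

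For sod-1, low values of 6, 6 and 10 were found in wild type and 13, 13 and 9 in the mutant. Replicates 1 and 2 were 2.17-fold higher in the mutant and replicate 3 was lower, so the groups overlapped. The log2 fold change of 0.62 (SE 0.23, adjusted p 0.0772) was not called with a term for the replicate number (adjusted p 0.152), which called 44.1% of all genes higher, or with equal library totals (0.30, adjusted p 0.367), and its adjusted p ranged from 0.0331 to 0.367 over the alternatives. The wild-type values of ctl-2 were 20, 22 and 21, and the mutant values of 26, 25 and 23 all lay above them, as they did for 44.0% of genes tested. The rise was small, at 0.22 on the log2 scale (SE 0.08, adjusted p 0.0707), was not called with the replicate term (adjusted p 0.125), and turned to -0.12 with equal library totals (adjusted p 0.408, range over the alternatives 0.0182 to 0.408). Both genes also lost the call in most fits that left out 1 library, and in 3 of these 6 fits prdx-2 was the only member called (without wild-type replicate 1, mutant replicate 1 or mutant replicate 2).

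The remaining members did not pass the test. Mitochondrial sod-2 had J2-IP values of 11, 11 and 10 in wild type and 14, 12 and 11 in the mutant (log2 fold change 0.19, SE 0.11, adjusted p 0.22), and the lowest mutant library equalled the highest wild-type libraries. Cytosolic ctl-1 had 16, 19 and 22 in wild type and 20, 32 and 23 in the mutant (0.36, SE 0.20, adjusted p 0.189), with mutant replicate 2 far above the other libraries. For ctl-3 every wild-type library had a J2-IP value of 18, and the mutant libraries had 17, 22 and 15, with equal means of 18 (log2 fold change -0.02, SE 0.14, adjusted p 0.938). Values this low move in steps of 1, the unit to which the table was rounded. The J2-IP values of ctl-1 spanned 16 to 32 over all 6 libraries, and its replicate 1 was the lowest in both genotypes.

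**Figure D3:**
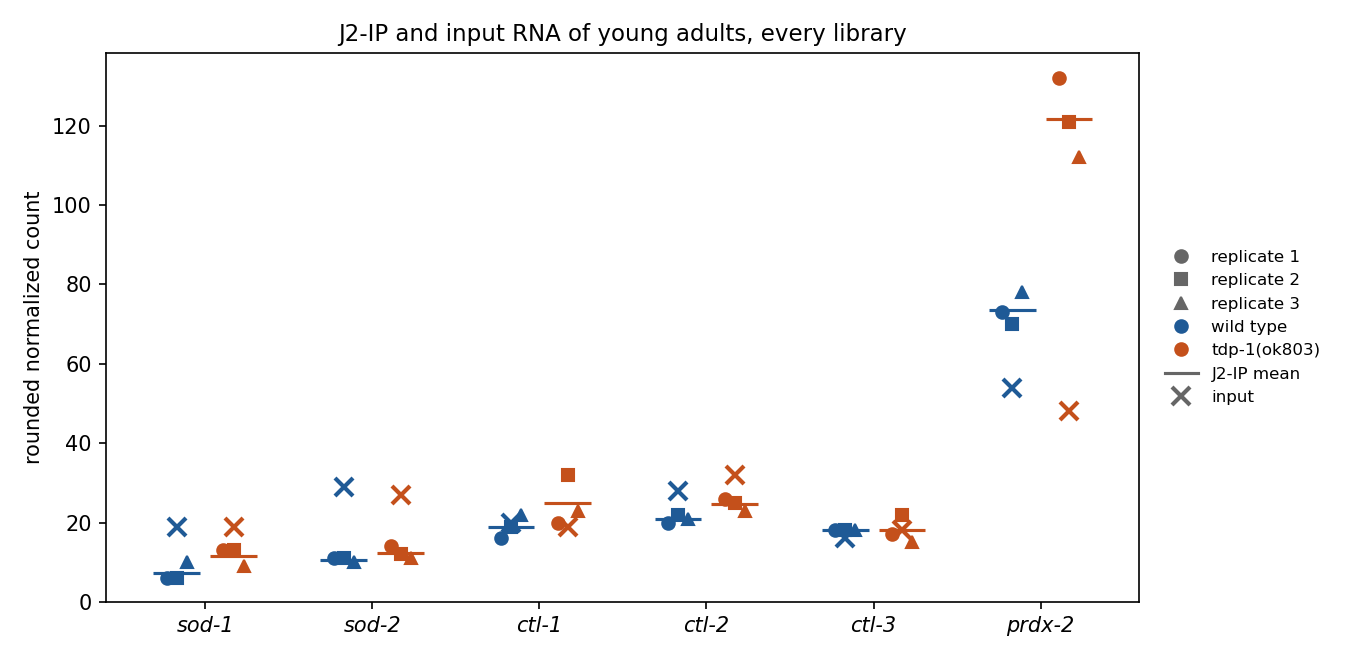
Rounded normalized counts of the 6 members in the J2-IP and input tables of young adults, with 1 point per J2-IP library, a line at the mean of 3 libraries and a cross for the single input library of each genotype. The 3 mutant J2-IP values of prdx-2 (112 to 132) lie above the 3 wild-type values (70 to 78) and above both inputs (54 and 48). All J2-IP values of sod-1, sod-2 and ctl-2 lie below their inputs.

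**Figure D4:**
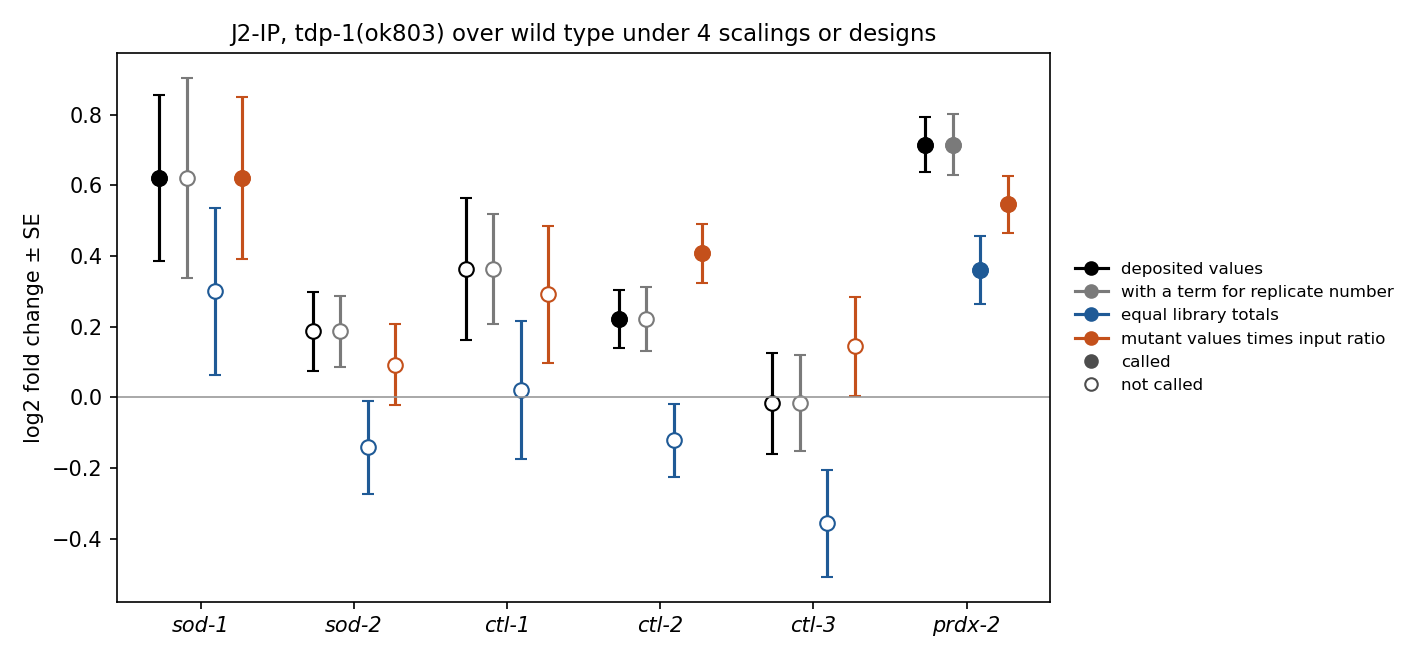
Log2 fold change (± SE) of tdp-1(ok803) over wild type in J2-IP for the 6 members, from limma on the deposited values, with a term for the replicate number, with equal library totals and with mutant values multiplied by the ratio of mutant to wild-type input. Filled points passed the threshold. The peroxiredoxin prdx-2 was called in all 4, sod-1 and ctl-2 in 2, and the other 3 members in none of them.

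The input RNA, with 1 library per genotype and no test, differed little for these genes. Wild type first and mutant second, the input values were 19 and 19 for sod-1, 29 and 27 for sod-2, 20 and 19 for ctl-1, 28 and 32 for ctl-2, 16 and 18 for ctl-3, and 54 and 48 for prdx-2. The ratios of mutant to wild type thus lay between 0.889 for prdx-2 and 1.14 for ctl-2, against a median of 0.857 over all genes joined. Rounding to whole numbers alone allows a ratio of 0.872 to 0.907 for prdx-2 and of 1.11 to 1.18 for ctl-2. The authors normalized J2-IP counts to input before testing, and where the mutant values are multiplied by these ratios to undo such a division, prdx-2 (0.55, adjusted p 0.00645), ctl-2 (0.41, adjusted p 0.0182) and sod-1 (0.62, adjusted p 0.0969) were called, as were 17.2% of genes in the same direction, with 15.9% called lower.

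The J2-IP value was also set beside the wild-type input value of the same gene, a ratio with an arbitrary scale whose median over all genes was between 1.095 and 1.2 in the wild-type libraries and 1.35 to 1.48 in the mutant libraries. The 2 superoxide dismutases had the lowest ratios of the 6 members, 0.316, 0.316 and 0.526 for sod-1 and 0.379, 0.379 and 0.345 for sod-2 in wild type. Together with ctl-2 (0.714, 0.786 and 0.750), 3 of 6 members were below 1 in all wild-type libraries, as were 30.04% of 8187 genes. The ratio was 0.80 to 1.1 for ctl-1 and 1.13 for ctl-3 in wild type, and no member had a wild-type mean over 1.5, as 30.29% of genes did.

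In the mutant, prdx-2 was the 1 member whose mean passed 1.5 times the wild-type input, as did 44.16% of genes. Its ratios rose from 1.35, 1.30 and 1.44 in wild type to 2.44, 2.24 and 2.07 in the mutant. The mutant values were 2.75, 2.52 and 2.33 times the mutant's own input, against medians over all genes of 1.77, 1.68 and 1.63. Whether the deposited mutant values already hold a division by input is unknown, so dividing by the mutant's own input may repeat that step. The mutant ratios to wild-type input were 0.684, 0.684 and 0.474 for sod-1 and 0.483, 0.414 and 0.379 for sod-2, still below 1. Those of ctl-2 also stayed below 1, at 0.929, 0.893 and 0.821. The summed J2-IP value of the yolk genes was 89138 to 91268 in wild type and 138285 to 139351 in the mutant. Their summed input value went the other way, at 40491 in wild type and 30357 in the mutant. With the deposited J2-IP values 6 of the 6 yolk genes were called higher, but 0 with equal library totals and 0 with the input ratio undone. The part of these differences in the values of the members was not tested.

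Genes whose poly(A) pattern over the 6 libraries was most like that of the member with the highest mean in each family were sought among 12957 genes with a mean of at least 100, by the root mean square difference of centred log2 values. The smallest differences were 0.040 and 0.043 for Y54G2A.18 and cnk-1 beside sod-1, 0.12 for both F37A8.5 and the forkhead gene fkh-7 beside ctl-2, and 0.033 and 0.042 for K10C3.4 and the small-subunit ribosomal protein gene rps-0 beside prdx-2. F37A8.5 repeated the high replicate 1 of ctl-2, with 2659, 435 and 494 normalized counts in wild type and 1347, 511 and 522 in the mutant. The 6 libraries share their depth and animals among all genes, so these differences are descriptions.

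Genes that act with these enzymes were counted in fixed lists. In poly(A) RNA none of 11 thioredoxin and peroxiredoxin genes, 15 glutathione genes, 7 genes of metal handling and peroxide or superoxide sources and 11 regulators tested passed the threshold in limma. All 11 regulators, among them daf-16, skn-1 and hlh-30, had a negative log2 fold change, with a median of -0.32 against -0.02 over all genes tested, and 9 were lower in the mutant in every replicate number, as were 18.2% of all genes. With replicates 2 and 3 alone, 2 of the 11 regulators were positive. The thioredoxin, glutathione and metal-handling lists had medians of 0.02, 0.05 and -0.07, and 1 of the 7 metal-handling genes was positive. The mRNA of daf-16, the regulator of sod-3 and ctl-1, was at 0.816, 0.729 and 0.631 of wild type in replicates 1, 2 and 3, without passing the test, and it, daf-2 and gpx-3 are named here after their values were seen.

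In J2-IP, 2 of 9 thioredoxin and peroxiredoxin genes tested were called higher and 1 lower, against the 44.6% and 8.17% of all genes. The gene called lower was prdx-6, a peroxiredoxin gene like prdx-2, with values of 7, 7 and 8 in wild type and 4, 5 and 4 in the mutant (log2 fold change -0.65, adjusted p 0.00676). It was not called where the ratio of inputs, 6 in wild type and 9 in the mutant, was undone (-0.16, adjusted p 0.394, range over the alternatives 0.00356 to 0.394). The 2 called higher were the sestrin gene sesn-1 (0.27) and the methionine sulfoxide reductase gene msra-1 (0.46), and neither was called with equal library totals or with the input ratio undone. The call of sesn-1 was also lost without wild-type replicate 1, wild-type replicate 2 or mutant replicate 3 (adjusted p over the alternatives 0.0410 to 0.611). Thus prdx-2 and prdx-6 were called in opposite directions with the deposited values.

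Of 9 glutathione genes, 2 were called higher, gcs-1 and gss-1 for the enzymes of glutathione synthesis (0.29 and 0.28), where 44.6% of all genes were. Neither was called with equal library totals, and gss-1 was also not called with the input ratio undone (0.077) or without wild-type replicate 1, wild-type replicate 2 or mutant replicate 1 (adjusted p 0.130, 0.153 and 0.138, range over the alternatives 0.0582 to 0.719). The call of gcs-1 was also lost without wild-type replicate 2 (adjusted p 0.116, range over the alternatives 0.0422 to 0.688). Of 5 genes of metal handling and oxidant sources, 3 were called higher, the ferritin gene ftn-2, the metallothionein gene mtl-1 and cuc-1, a copper chaperone gene. The ftn-2 values of 49, 47 and 51 in wild type and 75, 79 and 73 in the mutant gave a log2 fold change of 0.62 (SE 0.06, adjusted p 0.00112), while the values of cuc-1 were low, at 6, 2 and 3 against 9, 11 and 10 (1.32, SE 0.31, adjusted p 0.0176), and both were called under all alternatives in which they were tested, whereas mtl-1 (0.54) was not called with equal library totals. Of 10 regulators, 7 were called higher, led by wdr-23 (0.65), the repressor of SKN-1, then hlh-30 (0.50), skn-1 (0.42) and pqm-1 (0.42). With the replicate term 6 regulators were called, without pqm-1 (adjusted p 0.113, range over the alternatives 0.0461 to 0.742), which was called in 1 of the 6 fits that left out a library, the one without wild-type replicate 3. With the input ratio undone 0 regulators were called higher and 2 lower, against 17.2% and 15.9% of all genes, and with equal library totals 1 was called higher and 3 lower, against 13.1% and 27.8%.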

How the data were processed

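The poly(A) values were deposited as a signal, read counts per gene that the authors divided by 1 factor per library, after trimming, removal of rRNA reads and alignment to WS220. The tools listed per the labels include TopHat2 2.0.10, Bowtie2 2.1.0, HTSeq 0.5.4p3 and DESeq 1.16. Dividing by the smallest step gave whole reads (within 0.1 of a whole number) for 100% of values above 0 in each library, and these served edgeR 4.0.16 and DESeq2 1.42.0 as alternatives. For J2-IP and input the authors deposited rounded normalized counts, a score and not raw counts; how J2-IP was scaled to input in them is not given in the sources used here.

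Genotypes were compared with limma 3.58.1 (R 4.3.3, mean-variance trend) on log2(value + 1) across all genes, with Benjamini-Hochberg adjustment. Fold changes on this scale understate the change of low genes. Poly(A) genes needed a value of at least 10 in 3 libraries, J2-IP genes a value above 0 in all 3 libraries of a genotype. Across genes, same-numbered libraries deviated together from their genotype means (r of 0.657, 0.435 and 0.353 in poly(A) RNA and 0.295, 0.643 and 0.392 in J2-IP). Poly(A) replicates 2 and 3 correlated about as much across numbers (0.305 and 0.380), as did mutant replicate 3 with wild-type replicate 1 in J2-IP (0.315). Since every same-numbered pair was above 0.1, a term for the replicate number was an alternative. The methods name independent lysates for J2-IP, while the study describes 2 independent biological replicates per genotype for its poly(A) comparison and the labels number 3 libraries, all used here without knowing which were meant, so poly(A) p-values measure the spread between these libraries. Input rows were joined by sequence name (8322 of 8783 J2-IP genes). Beside the 9 members, genes of the fixed lists were named if called, up to 4 per list and assay by size, with the 2 most similar genes for 1 member per family. Scripts were tested on simulated data. Members and lists were chosen with earlier results of these data known. Editing and ChIP files were not used here.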

Additional observations from a re-analysis of the deposited data

How the results depend on the processing

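In poly(A) RNA no alternative called a member. Over all genes, DESeq2 called 7 higher and 10 lower, the replicate block 1 higher, and replicates 2 and 3 alone 330 higher and 348 lower, against 0 with limma. The prdx-2 fold change reversed to -0.23 with replicates 2 and 3 alone. Leaving out each library gave log2 fold changes of -0.065 to 0.46 for sod-4, -1.38 to 1.11 for ctl-1, -0.79 to 0.44 for ctl-2 and -0.30 to 0.21 for prdx-2, with 0 genes called in each.

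In J2-IP the 3 members called fell to 1 (prdx-2) with the replicate block, with equal library totals and among genes over 1.5-fold above input, a filter that prdx-2 alone passed, and only through its mutant libraries, and to between 1 and 3 when a library was left out. All genes called higher and lower were 1137 and 2415 with equal library totals, 1390 and 1289 with the input ratio undone, 1691 and 310 among genes over 1.5-fold above input, and 425 lower with a value of at least 10 in 3 libraries, against 3872 and 709. The last 3 settings test fewer genes (8094, 3924 and 7056 against 8680). The replicate block called 3830 higher and 706 lower, and leaving out each library 3241 to 3955 and 562 to 773. Signs reversed with equal library totals for sod-2 (-0.14), ctl-2 (-0.12), sesn-1 (-0.074), gcs-1 (-0.059) and gss-1 (-0.063), and with the input ratio undone for ctl-3 (0.14), sesn-1 (-0.18) and hlh-30 (-0.023). The ctl-3 value ranged from -0.16 to 0.10 when a library was left out. The median J2-IP over input of the members was 0.85 in wild type and 0.993 in the mutant with the deposited values, and with equal totals the order turned, at 0.725 and 0.661. The cause of these shifts was not tested. The rounding of J2-IP and input values to whole numbers limits the precision of the low members.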
